A study of Mus musculus with 8 samples.

Results

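The genes described here are retinoid-induced genes whose level with retinoic acid was lower by at least 2-fold when the medium was diluted with salt solution. Members were chosen by arithmetic on CPM, the read counts of a gene scaled to the same total in every library, averaged over the 2 libraries of a condition. A gene was taken when its mean in RA was at least 2 CPM, when RA plus 0.5 CPM was at least 2 times Veh plus 0.5 CPM, and when RA plus 0.5 CPM was at least 2 times NRRA plus 0.5 CPM. Of 55421 genes in the table, 446 passed the RA step (2.18% of the 20477 genes tested below) and 74 passed all steps, which is 16.6% of the RA-induced genes. The other 372 RA-induced genes stayed above 0.5 of their RA level in NRRA, on CPM plus 0.5, and serve as the comparison.

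The libraries came from mouse spermatogonial stem cell (SSC) cultures, made from testes of 6-day-old pups with the strain label C57BL/6XDBA/2 and kept on irradiated embryonic fibroblast feeders (MEFs) in medium with GDNF and FGF2. Vehicle in complete SSC medium was given to the Veh cells, and the RA cells were treated with 100 nM retinoic acid in that medium. NR cells were kept in 10% complete medium with 90% Earle's balanced salt solution (EBSS), and NRRA cells in the same dilution with 100 nM retinoic acid. Treatment lasted 2 days, and poly(A) RNA of 2 libraries per condition was sequenced with a stranded protocol. Feeder cells were present in all 4 conditions and their RNA can be in each library, and in such bulk RNA fewer cells of a type and less RNA per cell cannot be told apart. Dilution with EBSS lowers the growth factors of the medium together with its nutrients, so these cannot be told apart either.

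Retinoic acid, the active form of vitamin A, binds nuclear receptors (RARs with RXR partners) that sit on DNA and switch on target genes when the ligand is bound. In the testis it drives undifferentiated spermatogonia to differentiate and induces *Stra8*, the gatekeeper of meiotic entry. Outside the germ line retinoids act on embryonic patterning, on epithelia and on vitamin A uptake and breakdown, and several of the genes below belong to those programmes.

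Totals per library ranged from 19261333 to 30023585 counts, so that 1 CPM stands for about 19 to 30 reads. All 74 members passed edgeR's filter on low counts, which kept 20477 genes. Because the rule used the Veh, RA and NRRA libraries, the differences among those conditions are given as descriptions without a test. The NR libraries were not used by the rule, so NR vs Veh was tested, with edgeR's quasi-likelihood test fitted on all 8 libraries and Benjamini-Hochberg adjustment over all 20477 genes. A gene was called at an adjusted p under 0.05 with a fold change of at least 2. The Veh libraries did enter the rule, as the low side of the RA step, a selection that favours low Veh values. NR cells shared the diluted medium with NRRA cells, for whose low level members were chosen. The comparison genes were set apart by the same NRRA step. A lower NR level in members than in comparison genes or in all genes can thus be built in part into the rule, and the size of that part was not tested.

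By the rule all 74 members were higher in RA than in Veh, with folds on CPM plus 0.5 from 2.00 to 22.1 and a median of 2.86. In NRRA they were 2.01 to 20.8 times lower than in RA, with a median of 2.94. Both RA libraries lay above both Veh libraries and above both NRRA libraries in all 74, where 42.3% and 31.9% of the 20477 genes did so, and the rule leaves little room for anything else. Mean levels in RA ran from 2.07 to 5398 CPM with a median of 12.2, and 43 members reached 10 CPM. Just inside the minimum were *Plet1os* at 2.07, *Gm42686* at 2.10 and *Sprr2e* at 2.42 CPM, and just outside were *Gm50143* at 1.99, *Ffar2* at 1.95 and *Gm11843* at 1.86 CPM. For the fold over Veh, *Kcnn4* at 2.00, *Mmd* at 2.04 and *Syne3* at 2.04 lay inside, and *Csf2* at 1.98, *Lrrk2* at 1.92 and *Igfbp4* at 1.92 outside. For the fold over NRRA, *Clec7a* at 2.01, *Lypd1* at 2.02 and *Scd1* at 2.02 lay inside, and *Syt7* at 1.97, *Sema3e* at 1.97 and *2310002F09Rik* at 1.95 outside.

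The level with EBSS alone was low for most members. In NR, 40 of 74 members (54.1%) fell below Veh and 1, *Agtr2*, rose (1.35%), where 2.96% of all tested genes were lower and 5.33% were higher. Without the fold threshold, 54 members were lower and 4 higher, beside 22.2% and 21.7% of all tested genes, and 16 had an adjusted p of at least 0.05. The median log2 fold change of NR vs Veh was -1.22 over the members and 0.0057 over all tested genes, and members with counts in NR ranged from -5.55 (*Sprr2h*) to 2.14 (*Agtr2*). With *Lce3a* and *Csn3*, which had 0 counts in both NR libraries, placed at their lower bounds, the median was -1.17. The 372 RA-induced genes that were no members had 9 called lower (2.42%), 56 called higher (15.1%) and a median of 0.35. Both Veh libraries lay above both NR libraries in 58 members, against 31.4% of all genes, and both NR libraries lay above both Veh libraries in 7, against 37.5%.

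**Figure D1:**
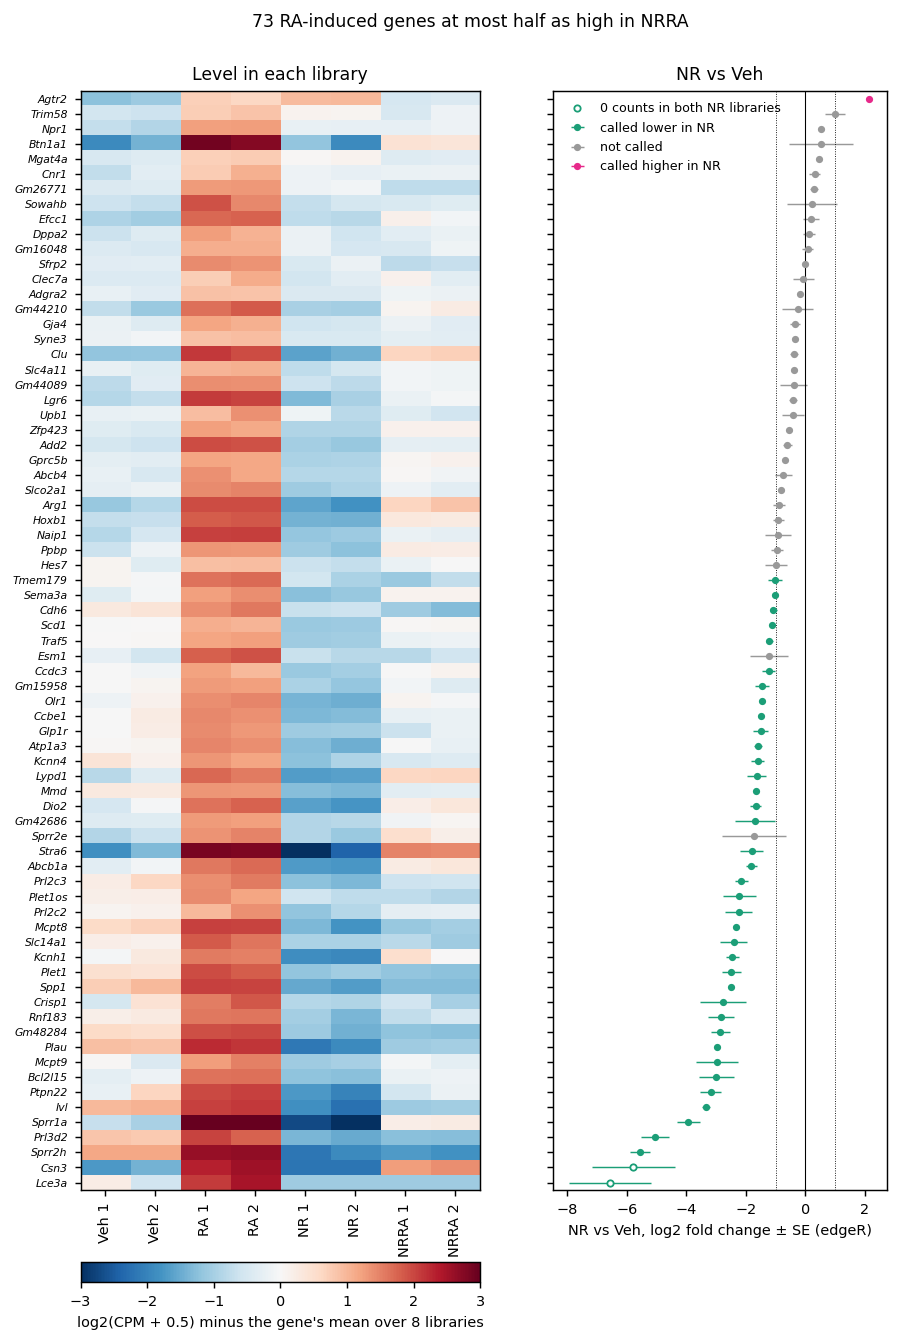
Left, the level of 73 of the 74 members (rows) in the 8 libraries (columns), as log2(CPM + 0.5) minus the gene's own mean, red for high and blue for low. Right, the log2 fold change of NR vs Veh with its standard error from edgeR, in the same order, with 39 genes called lower, 33 not called and 1 (*Agtr2*) called higher, dotted lines at a 2-fold change, and open points for the 2 genes with 0 counts in both NR libraries.

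Part of the members still differed between NRRA and NR, the conditions of the diluted medium with and without RA. NRRA was at least 2 times NR, on CPM plus 0.5, in 26 of 74 members (35.1%) and at most 0.5 of NR in 1, *Agtr2*, where 2.97% and 2.28% of all tested genes were, and in all 26 the libraries of both conditions were apart. Both NRRA libraries lay above both NR libraries in 54 members, against 45.7% of all genes. The median fold of NRRA over NR was 1.69. In the comparison genes the median was 2.33 and 225 of 372 (60.5%) passed 2-fold, with a median fold of 2.43 in complete medium. These folds contain the NRRA values used by the rule and are descriptions. On CPM plus 0.5, the fold of RA was smaller in diluted than in complete medium in 68 members and at least as large in 6. The added 0.5 CPM shrinks a fold over a low NR level, so these counts depend on it. Without it the order turned in some members, as in *Stra6* (39.6 times in diluted and 28.4 in complete medium) and *Sprr1a* (33.0 and 24.2). The rule itself favours a smaller fold in diluted medium, since it asked for a high RA level and a low NRRA level. Set against untreated complete medium, NRRA was within 2-fold of Veh in 50 members, at most 0.5 of Veh in 13 and at least 2 times Veh in 11, where 3.76% and 7.44% of all tested genes were at most 0.5 and at least 2 times. Both Veh libraries lay above both NRRA libraries in 30 members and below them in 33, against 29.2% and 48.8% of all genes. The label reversed thus covers genes below, at and above the Veh level. Most tested genes were also within 2-fold of Veh, as these shares show. The fall of at least 2-fold that the rule demanded draws members towards Veh by itself.

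**Figure D2:**
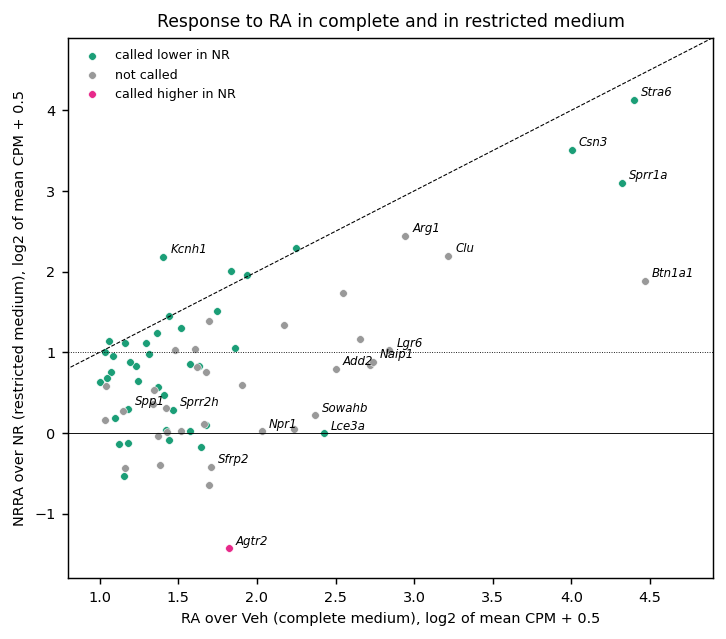
Each point is 1 of the 74 members, with the log2 ratio of RA over Veh in complete medium on the x axis and of NRRA over NR in diluted medium on the y axis, both from mean CPM + 0.5 of 2 libraries. Colours give the call in NR vs Veh, the dashed line marks equal response and the dotted line a 2-fold response. Below the dashed line, the side that the rule favours, lie 68 of the 74 points. The added 0.5 CPM draws the y value of genes low in NR towards no change.

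Read together, the NR call and the RA response in diluted medium, as the fold of NRRA over NR on CPM plus 0.5, give a description in 5 groups. In 16 members NR was called lower and NRRA was at least 2 times NR, among them *Stra6*, *Sprr1a*, *Csn3*, *Abcb1a*, *Kcnh1*, *Dio2*, *Olr1* and *Scd1*. In 24 members NR was called lower and NRRA was under 2 times NR, among them *Spp1*, *Plau*, *Ivl*, *Sprr2h*, *Plet1*, *Prl3d2* and *Mcpt8*. For members low in NR this place depends on the added 0.5 CPM. Without it NRRA was 2.14 times NR in *Ivl*, and 2.34 and 2.13 times in *Sprr2h* and *Prl3d2*, which rest on few reads. In 10 members NR was not called and NRRA was at least 2 times NR, as in *Hoxb1*, *Clu*, *Arg1* and *Lgr6*. In 23 members NR was not called and NRRA was under 2 times NR, as in *Sfrp2*, *Npr1*, *Mgat4a* and *Adgra2*. The last group is *Agtr2* alone, called higher in NR and at most 0.5 times as high in NRRA as in NR.

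Of 34 genes of retinoid response and metabolism, all tested, 14 were RA-induced and 2 of these, *Stra6* and *Hoxb1*, were members, a share close to the 16.6% of all RA-induced genes. In NR vs Veh 4 genes of the list were lower, the member *Stra6* among them, and 3 were higher, beside 2.96% and 5.33% of all tested genes. The median log2 value over the list was 0.017. *Cyp26a1*, which encodes an enzyme that degrades retinoic acid, had 121 and 122 CPM in RA and 92.0 and 89.8 in NRRA. *Rarb*, the self-induced receptor gene, had 42.9 and 41.1 CPM in RA and 49.0 and 50.7 in NRRA, so NRRA stayed close to RA in *Cyp26a1* and above it in *Rarb*.

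*Stra6* (chr9:58063788-58153996 on GRCm38, plus strand) encodes the membrane receptor that takes up retinol from its carrier in blood. It was at 1.04 and 1.70 CPM in Veh and at 39.4 and 38.3 with RA, against 0.189 and 0.557 for NR and 15.0 and 14.6 for NRRA. No conditions overlapped, and NRRA stood between Veh and RA. NR lowered it by a log2 value of -1.81 (SE 0.38, adjusted p = 0.000335). From that base NRRA was 17.5 times NR, on CPM plus 0.5, beside 21 times for RA over Veh. The NR mean of 0.373 CPM is below the added 0.5 CPM. Without that constant the ratios were 39.6 and 28.4, in the other order, so which fold was larger is not settled. *Hoxb1*, a homeobox gene that patterns the hindbrain and a known retinoid target, stood at 21.2 and 22.0 CPM with RA and 3.27 and 3.29 in Veh, and at 7.24 and 6.93 for NRRA and 1.79 and 1.78 for NR. Its log2 value of -0.91 in NR (SE 0.19, adjusted p = 0.000291) missed the 2-fold threshold.

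Genes of the cornified envelope, the cross-linked protein shell of skin cells, made up 4 of the 8 members with the lowest log2 value of NR vs Veh. Among these, *Lce3a* owes its place to a fitted value on 0 counts in both NR libraries, with a bound of 3.60-fold. Of 45 tested genes of the keratin and cornified envelope list, 17 were lower and 4 higher in NR vs Veh (median log2 value -0.74), beside 2.96% and 5.33% of all tested genes. In this list 10 genes were RA-induced and 5 of these were members, beside 16.6% of all RA-induced genes. The 5 were *Sprr1a*, *Ivl*, *Sprr2h*, *Lce3a* and *Sprr2e*. All 5 lie within 1 Mb neighbour distance of each other on chromosome 3, in the epidermal differentiation complex, from *Sprr2e* at chr3:92352143-92353449 to *Lce3a* at chr3:92925287-92926230. In all, 32 members fell into 14 such groups of neighbours. The proteins are small repeat-rich precursors that transglutaminase binds to the inner face of the membrane.

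*Sprr1a*, a small proline-rich precursor, had 2.51 and 1.95 CPM in the Veh libraries, 53.6 and 54.4 with RA, 0.236 and 0.0742 with NR and 5.06 and 5.20 with NRRA. NRRA stayed above Veh, and NR alone held 5 and 2 reads (log2 -3.93, SE 0.39, adjusted p = 3.81e-09). *Ivl* encodes involucrin, the scaffold of the envelope, and was at 22.1 and 23.5 CPM in Veh and at 47.8 and 50.2 with RA, against 2.74 and 1.97 for NR and 4.95 and 5.13 for NRRA. It fell 10.1-fold in NR (log2 -3.33, SE 0.12, adjusted p = 8.7e-18), and NRRA stayed far below Veh.

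*Sprr2h*, of the same precursor family, stood at 14.4 and 14.9 CPM with RA and 4.98 and 4.99 in Veh, and at 0.258 and 0.200 for NRRA and 0.0472 and 0.148 for NR. Its fall in NR (log2 -5.55, SE 0.33, adjusted p = 1.92e-13) rests on 1 and 4 reads in NR. *Lce3a*, a late envelope gene, had 15 and 4 reads in Veh and 0 in both NR and both NRRA libraries, which puts Veh at least 3.60-fold above NR and RA at least 43.9-fold above NRRA when 3 counts per library are taken as the floor (adjusted p = 0.000436 for NR vs Veh). *Sprr2e* had 0.0948 and 0.200 CPM in the Veh libraries, 2.28 and 2.55 with RA, 0.0945 and 0 with NR and 1.03 and 0.733 with NRRA, and was not called in NR (adjusted p = 0.208). The *Sprr* and *Lce* genes are families of close copies, and how reads that fit several copies were counted is not given in the sources used here.

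The same list held genes that went another way. *Sprr3* and *Sprr2b* of the same locus rose in NR, by log2 values of 3.14 (adjusted p = 0.00267) and 4.74 (adjusted p = 1.46e-05), and *Sprr3* reached a mean of 9.68 CPM in NRRA against 0.281 in RA. *Sprr2d* and *Sprr2k*, which were RA-induced and no members, fell in NR by log2 values of -2.11 (adjusted p = 1.55e-05) and -2.10 (adjusted p = 7.89e-06). Of the 6 keratinocyte markers, *Krt5*, *Krt14*, *Krt1* and *Dsg3* stayed under 1 CPM in every library. *Krt10* had means of 3.40 CPM in Veh, 5.92 with RA, 5.04 with NR and 5.09 with NRRA, and *Trp63* of 0.897, 2.24, 1.06 and 2.32 CPM. The markers together summed to 4.64 and 4.19 CPM in Veh and 8.25 and 8.28 in RA, with 5.79 to 7.57 CPM in the libraries of diluted medium, and their part in the levels of the envelope genes was not tested.

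**Figure D3:**
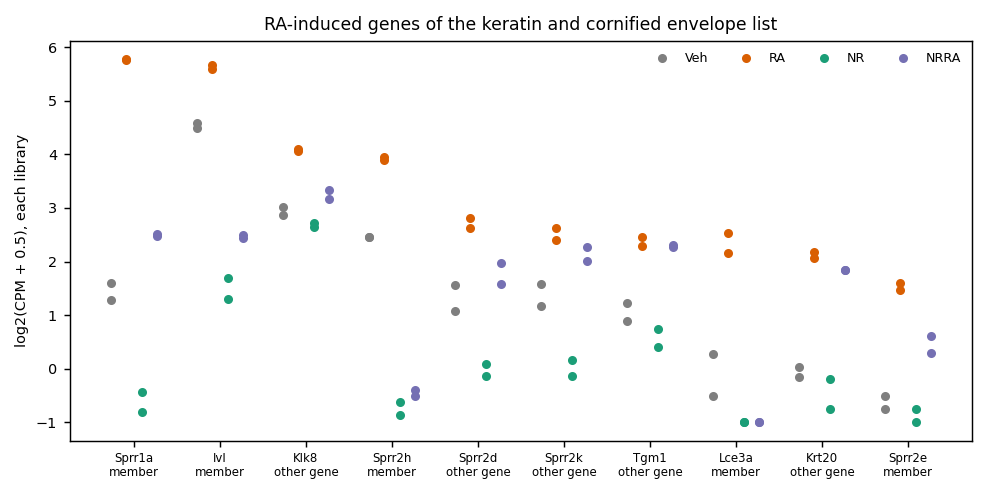
The 10 RA-induced genes of the keratin and cornified envelope list, with the level in each of the 8 libraries as log2(CPM + 0.5) on the y axis and the condition as colour. In the 5 members the NRRA points lie well below the RA points, as the rule demanded. Of the genes that are no members, *Tgm1* and *Krt20* keep NRRA points close to RA. *Sprr2d*, *Klk8* and *Sprr2k* fall by 1.91, 1.77 and 1.30 times on CPM plus 0.5, short of the 2-fold threshold.

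A short sequence lies in the windows around the transcription starts of *Sprr1a*, *Ivl*, *Sprr2h* and *Sprr2e* and not in that of *Lce3a*, and is shown here because it was the motif found most often in the members. RefSeq promoter windows of 300 bases, 250 before to 50 after the start (GRCm38.p6), were at hand for 53 of the 74 members. TGANTCA was in the windows of 12 of these 53 genes (22.6%) and of 8.97% of all 27025 genes with a window. It takes in TGAGTCA and TGACTCA, the letters read by AP-1 (dimers of Fos and Jun proteins), and also TGAATCA and TGATTCA. With N as any base the motif reads the same on both strands. TGACGTCA, the cyclic AMP response element, was in 1 (1.89%, all genes 2.03%) and the E-box CACGTG in 4 (7.55%, all genes 8.09%). The 12 genes were *Mgat4a*, *Sprr2e*, *Sprr2h*, *Sprr1a*, *Ivl*, *Rnf183*, *Ppbp*, *Efcc1*, *Olr1*, *Plet1*, *Prl2c3* and *Prl3d2*. Of these, *Mgat4a*, *Ppbp* and *Prl2c3* matched as TGAATCA and *Plet1* as TGATTCA. The AP-1 letters alone were not counted over all genes. A match is only a match of letters, several of these promoters are copies within a family or locus, and no binding was measured. The 250 bases before the start follow, 5′ to 3′ on the strand of the gene in lower case, with TGANTCA in capitals. *Sprr1a* holds it 2 times.
Sprr1a (chr3:92485882-92486131, minus strand): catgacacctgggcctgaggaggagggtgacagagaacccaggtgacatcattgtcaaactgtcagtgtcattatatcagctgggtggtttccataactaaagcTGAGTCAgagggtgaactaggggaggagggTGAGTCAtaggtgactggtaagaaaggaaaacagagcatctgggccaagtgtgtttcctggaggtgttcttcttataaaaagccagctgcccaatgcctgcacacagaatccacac
Sprr2e (chr3:92351893-92352142, plus strand): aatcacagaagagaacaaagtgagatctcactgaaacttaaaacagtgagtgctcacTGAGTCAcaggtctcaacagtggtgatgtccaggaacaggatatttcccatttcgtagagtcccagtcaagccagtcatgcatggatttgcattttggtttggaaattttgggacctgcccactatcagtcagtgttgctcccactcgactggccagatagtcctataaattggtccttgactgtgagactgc
Sprr2h (chr3:92385435-92385684, plus strand): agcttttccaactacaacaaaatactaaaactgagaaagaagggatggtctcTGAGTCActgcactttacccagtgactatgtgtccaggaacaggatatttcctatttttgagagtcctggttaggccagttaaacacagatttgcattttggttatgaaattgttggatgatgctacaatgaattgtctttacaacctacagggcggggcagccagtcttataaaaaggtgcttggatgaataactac
Ivl (chr3:92573736-92573985, minus strand): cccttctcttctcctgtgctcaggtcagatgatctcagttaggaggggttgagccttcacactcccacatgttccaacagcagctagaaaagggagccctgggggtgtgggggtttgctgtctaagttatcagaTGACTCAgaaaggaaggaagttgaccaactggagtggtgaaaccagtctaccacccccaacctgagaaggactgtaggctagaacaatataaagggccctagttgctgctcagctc
Olr1 (chr6:129507166-129507415, minus strand): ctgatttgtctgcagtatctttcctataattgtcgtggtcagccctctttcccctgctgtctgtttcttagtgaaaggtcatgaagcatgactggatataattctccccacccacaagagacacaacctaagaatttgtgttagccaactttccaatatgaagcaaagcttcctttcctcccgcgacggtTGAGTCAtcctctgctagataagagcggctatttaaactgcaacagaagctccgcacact
Prl3d2 (chr13:27121445-27121694, plus strand): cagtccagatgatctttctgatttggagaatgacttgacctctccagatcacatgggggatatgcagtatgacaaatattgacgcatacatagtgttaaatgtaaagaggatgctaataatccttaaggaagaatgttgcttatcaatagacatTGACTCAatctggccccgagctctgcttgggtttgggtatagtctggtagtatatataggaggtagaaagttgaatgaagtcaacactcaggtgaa

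A retinoid receptor site was searched on both strands as a direct repeat of 2 hexamers, each AGGTCA or AGTTCA, with 5 bases between. It was found in 1 of the 53 members with a window, *Ppbp* (1.89%), and in 0.0481% of all genes with a window. *Ppbp* encodes a platelet chemokine precursor and was at 2.89 and 4.29 CPM in Veh and at 12.8 and 12.6 with RA, against 2.03 and 1.74 for NR and 5.80 and 5.70 for NRRA. No conditions overlapped, with NR lowest, then Veh, NRRA and RA. Its window is shown with the repeat, which lies on the opposite strand, and the TGANTCA match in capitals.
Ppbp (chr5:90768268-90768517, plus strand): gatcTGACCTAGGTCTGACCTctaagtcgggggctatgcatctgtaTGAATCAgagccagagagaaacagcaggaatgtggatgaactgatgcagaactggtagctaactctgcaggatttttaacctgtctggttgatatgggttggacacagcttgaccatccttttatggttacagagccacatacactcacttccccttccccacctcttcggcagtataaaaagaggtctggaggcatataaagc

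*Spp1* (ENSMUSG00000029304, chr5:104435118-104441050, plus strand) encodes osteopontin, a phosphoprotein of the extracellular matrix that binds integrins. It stood at 5461 and 5335 CPM with RA and 2192 and 2574 in Veh, and at 533 and 534 for NRRA and 454 and 411 for NR. It was the highest member in RA, also per length, with 3275 CPM per kb of exon against 126 for *Plau* as the next. It was low in diluted medium with or without RA, at a 5.63-fold fall in NR vs Veh (log2 -2.49, SE 0.05, adjusted p = 5.76e-23), and the NRRA libraries were 4.47 times below Veh. Of its exon bases 18.8% overlap *Gm42793* on the same strand.

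*Plau* (chr14:20836660-20843385, plus strand) encodes urokinase, the serine protease that activates plasminogen at the cell surface. It had 122 and 118 CPM in the Veh libraries, 308 and 289 with RA, 14.4 and 17.0 with NR and 30.8 and 31.8 with NRRA. The conditions were all apart in the order NR, NRRA, Veh, RA, with a 7.74-fold fall in NR (log2 -2.95, SE 0.07, adjusted p = 3.66e-22). *Mcpt8*, a mast cell and basophil protease gene, was at 27.4 and 29.9 CPM in Veh and at 77.4 and 76.4 with RA, against 6.90 and 4.94 for NR and 8.05 and 8.79 for NRRA, a 5.04-fold fall in NR (adjusted p = 7.03e-16). Its neighbour *Mcpt9* was low, at a mean of 2.49 CPM in RA, and was also called lower in NR (adjusted p = 0.00131) on 1 and 2 reads.

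*Clu*, *Arg1* and *Esm1* had folds over Veh above the members' median. *Clu*, which encodes the chaperone clusterin, stood at 87.0 and 77.5 CPM with RA and 8.34 and 8.48 in Veh, and at 30.9 and 32.8 for NRRA and 6.14 and 6.98 for NR. *Arg1*, arginase 1 of the urea cycle, had 3.17 and 3.94 CPM in the Veh libraries, 30.6 and 30.7 with RA, 2.22 and 1.78 with NR and 12.2 and 14.0 with NRRA. In both genes NR lay below Veh without reaching the 2-fold threshold (log2 -0.38 with adjusted p = 0.0157, and -0.88 with adjusted p = 0.000671), and NRRA lay well above Veh. *Esm1*, an endothelial proteoglycan gene, had 0.426 and 0.250 CPM in Veh, 3.27 and 3.62 in RA and at most 0.233 in each NR and NRRA library.

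**Figure D4:**
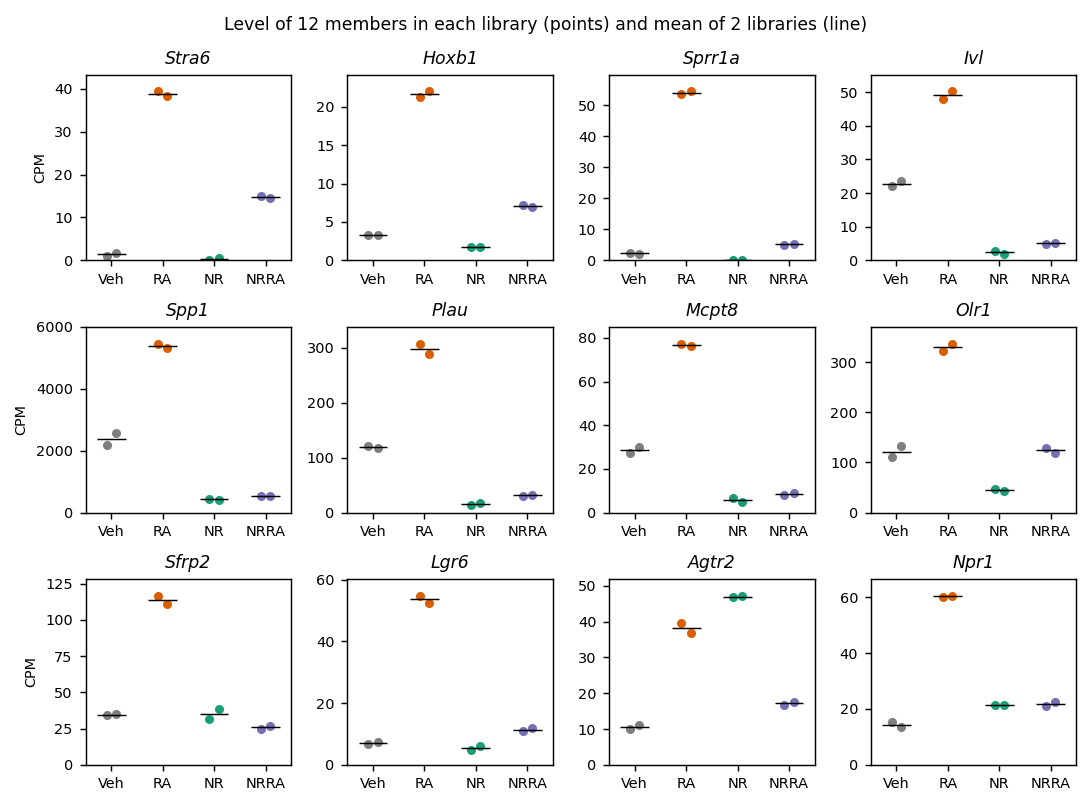
CPM of 12 members in each of the 8 libraries (points, 2 per condition) with the mean of 2 libraries as a line, on linear axes that start at 0. *Spp1*, *Plau*, *Mcpt8* and *Ivl* are low in NR and NRRA, and *Stra6* and *Hoxb1* have NRRA levels between Veh and RA. *Sfrp2* and *Npr1* rise with RA in complete medium alone, and *Agtr2* is highest in NR.

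A pair of Wnt pathway genes behaved differently from the protease genes. Wnt ligands bind Frizzled receptors, secreted Frizzled-related proteins catch the ligands, and the LGR receptors enhance the signal. Of 45 tested genes of the Wnt list, 4 were lower and 8 higher in NR (median log2 value 0.019), beside 2.96% and 5.33% of all tested genes. In the Wnt list 5 genes were RA-induced and 2 of these were members, beside 16.6% of all RA-induced genes. *Sfrp2*, a secreted Wnt antagonist, was at 34.3 and 34.8 CPM in Veh and at 117 and 111 with RA, against 31.3 and 38.3 for NR and 25.0 and 26.8 for NRRA. NR and Veh overlapped (log2 -0.01, SE 0.08, adjusted p = 0.926), and both NRRA libraries lay below both NR libraries. Its antisense neighbour *Gm26771*, of whose exon bases 32.1% lie over *Sfrp2*, had the same order, with 17.8 and 18 CPM with RA, 6.28 and 6.64 with NR and 3.95 and 3.93 with NRRA, and whether the counting used the strand is not given in the sources used here. *Lgr6*, a receptor for R-spondins, stood at 54.7 and 52.4 CPM with RA and 6.63 and 7.44 in Veh, and at 10.9 and 12 for NRRA and 4.63 and 6.05 for NR, and NR vs Veh was -0.41 on the log2 scale (adjusted p = 0.0183).

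Receptor genes for circulating hormones held 2 of the 4 members with an adjusted p under 0.05 and a higher level in NR, *Agtr2* and *Npr1*. *Agtr2* (chrX:21484544-21489164, plus strand) encodes the type 2 angiotensin II receptor. It had 9.90 and 11.0 CPM in the Veh libraries, 39.6 and 36.9 with RA, 46.8 and 47.2 with NR and 16.8 and 17.5 with NRRA. Both libraries of RA and of NR lay above those of NRRA, which lay above Veh, and *Agtr2* was the member whose highest mean was not in RA. The rise in NR was 4.40-fold (log2 2.14, SE 0.08, adjusted p = 1.28e-17). *Npr1*, the receptor for atrial natriuretic peptide, was at 15.3 and 13.5 CPM in Veh and at 60.2 and 60.5 with RA, against 21.5 and 21.4 for NR and 21.1 and 22.5 for NRRA. In diluted medium its libraries with and without RA overlapped, and NR stood 1.46-fold above Veh (adjusted p = 6.89e-06). Its antisense partner *Gm16048*, with 84.3% of its exon bases over *Npr1*, had 10.9 and 10.8 CPM in RA and 3.30 to 4.36 in the other 6 libraries.

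*Cnr1*, the cannabinoid receptor of the brain, stood at 9.14 and 11.3 CPM with RA and 2.89 and 4.09 in Veh, and at 4.47 and 4.50 for NRRA and 4.63 and 4.27 for NR, with no call in NR (adjusted p = 0.162). *Glp1r*, the receptor for glucagon-like peptide 1, went down instead, with 2.89 and 3.49 CPM in Veh, 8.62 and 7.85 with RA, 1.13 and 1.15 with NR and 1.66 and 2.46 with NRRA (log2 -1.51, SE 0.24, adjusted p = 1.22e-05). *Adgra2*, an adhesion receptor of vessel growth, and *Gprc5b*, an orphan receptor first known as retinoid-inducible, had means of 396 and 93.4 CPM in RA and 194 and 44.0 CPM in NRRA. In NR they lay below Veh by log2 values of -0.18 (adjusted p = 0.00216) and -0.67 (adjusted p = 8.35e-09), both under 2-fold.

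*Olr1*, *Scd1* and *Dio2*, which act in lipid uptake, lipid synthesis and thyroid hormone activation, were called lower in NR. *Olr1* encodes LOX-1, the scavenger receptor for oxidised low density lipoprotein, and had 110 and 133 CPM in the Veh libraries, 323 and 337 with RA, 46.2 and 43.9 with NR and 129 and 119 with NRRA. NRRA and Veh overlapped, while NR was 2.76-fold below Veh (adjusted p = 9.41e-16), with NRRA at 2.73 times NR on CPM plus 0.5. *Scd1*, stearoyl-CoA desaturase, showed the same order with 90.5 and 91.6 CPM in Veh, 196 and 184 with RA, 41.8 and 42.8 with NR and 93.5 and 94.3 with NRRA. It was the member of 27 tested genes of sterol and fatty acid synthesis. Of these 1, *Scd1* itself, was lower and 0 were higher in NR by edgeR (median log2 value -0.28), beside 2.96% and 5.33% of all tested genes. *Dio2*, the deiodinase that activates thyroid hormone, was at 5.97 and 8.43 CPM in Veh and at 27.5 and 30.4 with RA, against 2.46 and 2.19 for NR and 9.89 and 11.0 for NRRA.

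Genes of trophoblast and mammary gland formed a further set, put together after the values were seen. *Prl3d2*, *Prl2c3* and *Prl2c2* belong to the prolactin family, made mainly by placental giant cells, and *Plet1* marks placental progenitors. Of 8 tested *Prl* genes, 6 were lower and 1 was higher in NR, beside 2.96% and 5.33% of all tested genes. The 3 that were RA-induced were all members, beside 16.6% of all RA-induced genes. *Prl3d2* stood at 5.76 and 4.73 CPM with RA and 2.23 and 2.15 in Veh, and at 0.148 and 0.133 for NRRA and 0.0945 and 0.0371 for NR, with 2 and 1 reads in NR (adjusted p = 1.8e-09). *Prl2c3*, or proliferin, had 4.08 and 5.54 CPM in the Veh libraries, 9.86 and 11.1 with RA, 1.18 and 1.04 with NR and 2.07 and 2.10 with NRRA (log2 -2.15, SE 0.22, adjusted p = 6.81e-09), and *Prl2c2* is a near copy of it, so that their reads cannot be told apart with certainty. *Plet1* had 2.13 and 2.00 CPM in Veh, 6.80 and 6.10 in RA and 0.30 to 0.408 in the 4 libraries of diluted medium (log2 -2.48 in NR, SE 0.32, adjusted p = 4.23e-07).

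The milk genes *Csn3*, which encodes kappa-casein, and *Btn1a1*, which encodes butyrophilin of the milk fat globule, were close to 0 without RA. *Csn3* had 4 and 7 reads in Veh and 0 in both NR libraries, and reached 10.9 and 12.7 CPM in RA and 4.95 and 5.46 in NRRA. Veh was at least 2.13-fold above NR with 3 counts per library as the floor (adjusted p = 0.00141). *Btn1a1* was at 0 and 0.200 CPM in Veh and at 13.4 and 12.1 with RA, against 0.331 and 0 for NR and 2.03 and 1.90 for NRRA, with no call in NR (adjusted p = 0.73). In both genes the NRRA libraries lay above NR and Veh and below RA.

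Several members encode channels, pumps and transporters. *Abcb1a* and its neighbour *Abcb4* encode the multidrug and the phospholipid export pumps. *Abcb1a* stood at 19.9 and 21.6 CPM with RA and 4.98 and 5.94 in Veh, and at 7.64 and 8.16 for NRRA and 1.61 and 1.56 for NR (log2 -1.81, SE 0.18, adjusted p = 5.06e-09). *Kcnh1*, a voltage-gated potassium channel gene, had 5.59 and 7.19 CPM in the Veh libraries, 18 and 17.5 with RA, 1.23 and 1.15 with NR and 8.49 and 5.86 with NRRA, which puts NRRA 4.54 times above NR beside 2.64 times for RA over Veh, on CPM plus 0.5. By that measure it was among the 6 members whose fold was not smaller in diluted medium. The calcium-activated channel gene *Kcnn4* fell by 1.6 on the log2 scale in NR (SE 0.21, adjusted p = 4.54e-07) and had 2.40 and 2.6 CPM in NRRA.

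Of 184 tested ion channel genes 9 were lower and 21 higher in NR (median log2 value 0.15), and of 295 solute carrier genes 9 were lower and 17 higher (0.033). Over all tested genes the shares were 2.96% lower and 5.33% higher, and the solute carrier counts lie near these shares. The 3 solute carrier members differed. *Slc14a1*, a urea transporter gene, had 1.04 and 0.948 CPM in Veh, 4.31 and 3.59 in RA and 0.133 to 0.258 in the 4 libraries of diluted medium (adjusted p = 0.000124 in NR). *Slco2a1*, a prostaglandin transporter gene, and *Slc4a11*, a borate and proton transporter relative, had means of 63.4 and 29.7 CPM in RA and 19.3 and 13.1 CPM in NRRA, and did not reach 2-fold in NR. *Cdh6*, a cadherin gene, was at 12.6 and 13.4 CPM in Veh and at 27.6 and 31.6 with RA, against 6.19 and 6.38 for NR and 4.61 and 3.8 for NRRA, so that NRRA was the lowest condition (log2 -1.08 in NR, SE 0.12, adjusted p = 2.67e-08).

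Other transcription factor genes were also members. *Zfp423*, a zinc finger gene known as a partner of retinoid and BMP signals, stood at 69.2 and 64.7 CPM with RA and 22.3 and 21 in Veh, and at 31.9 and 32.0 for NRRA and 15.3 and 15.3 for NR. *Hes7*, the clock gene of the somites and the Notch pathway member of the set, had 2.65 and 2.69 CPM in RA and 0.960 and 1.17 in NRRA. *Dppa2*, a gene of pluripotent and germ cells, had 2.27 and 2.79 CPM in the Veh libraries, 9.81 and 8.39 with RA, 3.35 and 2.38 with NR and 2.99 and 3.30 with NRRA, without a call in NR (adjusted p = 0.682).

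Members other than those above include *Ccbe1*, a lymphatic growth gene, *Sema3a*, a guidance cue, *Mmd* and *Mgat4a*. *Mmd* had 166 and 163 CPM in RA, 52.8 and 53.5 in NRRA and 27.0 and 25.6 in NR, and fell 3.12-fold in NR vs Veh (adjusted p = 3.28e-18). *Mgat4a*, which branches N-glycans, was at 44.8 and 47.6 CPM in Veh and at 102 and 106 with RA, against 63.7 and 66.7 for NR and 47.5 and 48.8 for NRRA, so that NRRA returned to Veh while NR alone stood 1.38-fold above it (adjusted p = 2.16e-07). *Trim58* was 1.99-fold higher in NR (adjusted p = 0.0138), just under the fold threshold. *Ptpn22*, a lymphocyte phosphatase gene, and its neighbour *Bcl2l15* were both called lower, by log2 values of -3.18 (SE 0.36, adjusted p = 4.89e-08) and -2.99 (SE 0.58, adjusted p = 0.000135). *Sowahb* had 0.0945 to 0.266 CPM in all 4 libraries of diluted medium and 3.22 and 2.19 CPM in RA.

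Of the 74 members 65 are annotated as protein coding, 6 as antisense, and 1 each as lincRNA (*Gm48284*), TEC (*Gm42686*, a class still to be tested by experiment) and polymorphic pseudogene (*Clec7a*). *Gm48284* had 2.61 and 2.45 CPM in Veh, 7.48 and 7.75 in RA and 0.260 to 0.472 in diluted medium (log2 -2.85 in NR, SE 0.31, adjusted p = 2.6e-08). Exons of 26 members overlap another gene, and 14 of these overlap another member on the opposite strand. Without the overlapping members and the members of gene families with close copies, 26 of 51 were lower in NR, a set chosen after the values were seen.

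Of the 39 tested genes of the early meiosis list 8 were RA-induced and 0 were members, where 16.6% of all RA-induced genes were. In NR vs Veh 0 were lower and 4 were higher by edgeR (median log2 value 0.32). Of 22 tested GDNF and FGF signal target genes only 1, *Fgfr3*, was RA-induced, so the rule left little room for members, and 0 were. In NR 10 of the list were lower and 0 higher by edgeR (median log2 value -0.76). Of all tested genes 2.96% were lower and 5.33% higher. In all, 18 members were in one of the gene lists and 56 in none. The 15 fibroblast feeder markers summed to 23112 and 23237 CPM in Veh, 20620 and 19466 with RA, 36665 and 38051 with NR and 31419 and 30701 with NRRA, with 5 higher and 0 lower in NR. Single markers differed, with *Col1a1* higher in NR (log2 1.07, adjusted p = 2.76e-18) and *Vim* and *S100a4* below Veh by less than 2-fold (log2 -0.89, adjusted p = 5.69e-17, and -0.87, adjusted p = 0.00282). The 6 germ cell markers summed to 658 to 683 CPM in Veh, 793 to 875 in RA, 804 to 835 in NR and 910 to 940 in NRRA, and the 5 smooth muscle markers to 160 to 165, 141 to 144, 660 to 672 and 1125 to 1132 CPM. The part of such shifts in the members' levels was not tested.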

How the data were processed

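RNA of 8 libraries from 4 conditions (Veh, RA, NR, NRRA) was analysed. The labels gave each library's condition and replicate number and do not say that replicates came from separate cultures, while the study calls its sequencing replicates biological and independent. What separates them is not given in the sources used here, so p-values measure the spread between these libraries. That spread was small, with a common coefficient of variation of 3.35% in the edgeR fit on 4 residual degrees of freedom. Very small p-values rest on it. The authors deposited raw counts of reads per Ensembl gene, whole numbers without normalization. Per the submitters' processing notes bcl2fastq, STAR 2.6.1c and featureCounts 1.6.4 were used with mm10. The annotation release, the strand setting and the treatment of reads that fit several genes are not given in the sources used here. The labels and the paper name different stranded library kits. The table has 0 columns without a sample. Of 55421 identifiers 55240 were in GENCODE M21 (GRCm38), all 74 members included.

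CPM were computed from column totals. NR vs Veh was fitted in R 4.3.3 with edgeR 4.0.16 (TMM, filterByExpr by condition, glmQLFit with 1 coefficient per condition over all 8 libraries, glmQLFTest), with calls for 2-fold changes whose adjusted p was below 0.05. The standard error is the absolute log2 value divided by the square root of F. A fold against a condition with 0 counts uses a floor of 3 counts per library. With library totals of 19261333 to 30023585 counts, genes under 1 CPM rest on few reads. The fit was tested on simulated data. Alternatives were DESeq2 1.42.0, its size factors, no filter, the NR and Veh libraries alone, a replicate block, leaving out each library, other constants and minimums of the rule, and 2 added after the values were seen. Replicate numbers did not pair the samples, with correlations of their deviations from -0.033 to 0.023. Figures were drawn in Python 3.11.15 with matplotlib 3.10.9.

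Named members are the 12 highest in RA, the 12 with the largest fall from RA to NRRA, the 8 highest and 8 lowest in NR vs Veh, those in a gene list, and the 3 genes either side of each threshold, to which further members were added after their values were seen. The members, the gene lists and the tests were chosen with earlier results of these data known. 1 member is counted but not reported by name here.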

Additional observations from a re-analysis of the deposited data

Results flagged for a closer look

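In 7 members both NR libraries lay above both Veh libraries while both NRRA libraries lay below both RA libraries, as the rule demanded of the latter, and the difference between these effects was not tested. Of the 7, *Agtr2*, *Trim58*, *Npr1* and *Mgat4a* had an adjusted p under 0.05 in NR vs Veh by edgeR, and *Cnr1*, *Gm26771* and *Efcc1* did not (adjusted p = 0.162, 0.074 and 0.586). As log2 ratios of mean CPM + 0.5, *Agtr2* was at 2.12 for NR over Veh and at -1.13 for NRRA over RA, *Trim58* at 0.68 and -1.10, *Npr1* at 0.56 and -1.45, and *Mgat4a* at 0.49 and -1.11. *Cnr1* was at 0.31 and -1.11, *Gm26771* at 0.29 and -2.05, and *Efcc1* at 0.17 and -1.70. Of all tested genes 37.5% had both NR libraries above both Veh libraries.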

How the results depend on the processing

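Of 951 fits of a member under an alternative, 916 kept direction and call, 14 lost the call, 8 gained it and 13 turned direction, and 36 of the 40 members called lower stayed called wherever they were tested. With the NR and Veh libraries alone 63 members passed the filter and 11 were no longer tested. Of the 63, 35 were lower and 2 higher, with *Trim58* added at a log2 value of 1.01, and the median was -1.13. Without the fold threshold 54 were lower and 4 higher, and without a filter 2 were higher. Leaving out 1 library gave 37 to 40 lower, 1 to 2 higher (2 without Veh replicate 1, with *Trim58* added) and medians from -1.27 to -1.11. With the replicate block the fit gave 40 lower, 1 higher and a median of -1.22, and no call changed. Without overlapping and gene family members 26 of 51 were lower, by construction from fewer genes. Chosen with 1 Veh library and compared with the other, 33 of 75 and 29 of 73 were at most 0.5 of Veh. These counts use the fold on CPM plus 0.5 without a test. By that measure 30 of the 74 members were at most 0.5 of Veh with both Veh libraries. The rule itself found 66 genes with TMM totals, 80 and 61 with constants of 0.1 and 1 CPM, 81 and 55 with minimums of 1 and 5 CPM, 70 to 77 without 1 library, 71 and 78 with each replicate number alone, and 61 with both.

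The call of *Gm42686* was lost under 8 alternatives, that of *Crisp1* without Veh or NR replicate 2 (log2 -1.48 and -2.58), of *Sema3a* without Veh replicate 2 or NR replicate 1 (-0.86 and -0.96) and of *Tmem179* without Veh replicate 1 or NR replicate 2 (-0.93 and -0.74). *Arg1* and *Ppbp* passed 2-fold without Veh replicate 1 or NR replicate 1, and *Hes7* without Veh replicate 2. Members that turned direction when 1 library was left out were not called in the fit reported. Over these fits *Btn1a1* ran from -4.39 to 4.95 (-0.45 without Veh replicate 1), *Sfrp2* from -0.16 to 0.14 (6.84e-05 without Veh replicate 1 and 0.015 without Veh replicate 2), *Dppa2* from -0.10 to 0.39 (-0.00335 without Veh replicate 1), *Upb1* from -1.01 to 0.099, *Sowahb* from -0.36 to 0.58, *Clec7a* from -0.25 to 0.10, *Gm16048* from -0.073 to 0.28, *Gm44089* from -0.75 to 0.11 and *Gm44210* from -0.62 to 0.30. The cause was not tested. Members under 1 CPM in NR and Veh rest on few reads, and the spread is estimated from 2 libraries per condition.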
